A study of Mus musculus with 8 samples.

Results

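The D-type cyclins, the kinases they bind and the inhibitors of those kinases were compared between BTBR and B6 hippocampus, together with Rb1, the protein they act on. The genes were Ccnd1, Ccnd2, Ccnd3, Cdk4, Cdk6, Cdkn1a, Cdkn1b, Cdkn2c, Cdkn2d and Rb1, and every non-control probe that carried one of these gene names was taken. This gave 10 genes with 18 of the 41174 probes on the array, of which 15 probes, with at least 1 for each gene, were bright enough to be tested. Of these genes 5 had a single probe and 5 had more than 1.

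Whole hippocampi came from 4 BTBR and 4 B6 mice, all labeled as males of 5 months that received no drug, and each mouse was hybridized to its own single-color Agilent array. The B6 mice were wild type C57BL/6J, and the BTBR mice had the genotype BTBR T+ Itpr3tf/J, an inbred strain used as a model of autism. The labels also gave C57BL/6J as the strain background of the BTBR mice, whereas title, source and genotype placed them in the BTBR group. BTBR differs from B6 across the genome and not at a single engineered locus, so a difference between the strains cannot be assigned to any allele here, and strain and allele cannot be told apart.

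D cyclins bind Cdk4 and Cdk6, and the active pair phosphorylates the retinoblastoma protein, which then releases E2F factors and lets the genes of S phase be transcribed. INK4 inhibitors, among them p18 (Cdkn2c) and p19 (Cdkn2d), bind Cdk4 and Cdk6 and keep the cyclin out, while the Cip/Kip inhibitors p21 (Cdkn1a) and p27 (Cdkn1b) bind cyclin-kinase complexes. In the adult hippocampus most neurons have left the cell cycle, dividing cells are found mainly among dentate progenitors and glial precursors, and several of these inhibitors are also present in mature neurons. All values below are from pieces of whole tissue, in which fewer cells of a type and less RNA per cell cannot be told apart.

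Values are normalized log2 intensities, made by subtracting local background from the spot signal, adding 50 and quantile normalizing the 8 arrays, so that 1 unit is a doubling of that sum and folds of dim probes are understated. A probe was tested when the scanner software placed it well above background in 75% or more of the BTBR arrays or of the B6 arrays. Differences are BTBR minus B6. Limma, a linear model with a moderated variance fitted to all 27982 tested probes, called a probe at a Benjamini-Hochberg adjusted p under 0.05, and the rank product, the test named in the methods, called it at a percentage of false prediction (pfp) of 0.05 or less. An exact permutation test over the 8 arrays was run for each probe, two-sided, and cannot give less than 0.0286 with 4 arrays against 4. Levels of different probes are not comparable with each other.

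Cdkn2d and Ccnd1 were lower in BTBR hippocampus, and no other probe of these genes passed the limma threshold. The 2 called probes were 13.3% of the 15 tested, where limma called 7.61% of all probes on the array (4.30% lower and 3.31% higher in BTBR). Counted by gene, 2 of 10 were called, against 1849 of the 18399 gene names tested (10%). The 10 genes were chosen with earlier results of these data known, so these shares are no test of enrichment. By limma, 0 of the 15 probes were called higher in BTBR, while 4 had an unadjusted p under 0.05, those of Ccnd1, Cdkn2d, Ccnd3 and Cdkn1a, a level that 18.5% of all tested probes reached. The rank product called 3 probes, those of Ccnd1 and Cdkn2d as lower and that of Cdkn1a as higher, where it called 3.95% of all probes. The arrays of the strains did not overlap at 2 of the 15 probes (13.3%), against 14.2% of all tested probes. Over the 15 probes the median difference was -0.02 and the median absolute difference 0.10, where all tested probes had 0.01 and 0.10.

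The probes that carry the results are shown by the first 30 of their 60 bases, 5′ to 3′, as the array files give them, since each of these genes has only 1 probe and the difference rests on that sequence. Coordinates are those of mm9. The Ccnd1 probe lies at chr7:152116173-152116232 on the minus strand, the Cdkn2d probe at chr9:21092980-21093039 on the minus strand, and the Cdkn1a probe at chr17:29237377-29237436 on the plus strand. Which exon or untranslated region they match was not analysed here, nor whether BTBR carries sequence variants under these probes. The probes are those of a shared array design, so the differences below are differences in probe signal, in which transcript level and binding to the probe cannot be told apart from these arrays alone.
Ccnd1: tgttttgtgttaattacagcattgtgctaa
Cdkn2d: ttgggcatgtgagggggaagggaaagcatt
Cdkn1a: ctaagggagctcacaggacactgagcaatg

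Ccnd1 encodes cyclin D1, which is induced by growth factors and starts the passage from G1 into S phase. Its probe (S78355 in the array annotation) read 11.37, 11.59, 11.79 and 11.86 on B6 replicates 1 to 4 and 10.54, 10.50, 10.66 and 10.70 on BTBR replicates 1 to 4. All BTBR arrays were below all B6 arrays, and the B6 arrays were spread more widely than the BTBR arrays. The means were 11.65 ± 0.22 in B6 and 10.60 ± 0.10 in BTBR (SD, n = 4 each). Ccnd1 thus differed by -1.05 on the log2 scale, which is 51.8% lower in BTBR after conversion to a linear ratio (ratio 0.482, 95% interval 0.405 to 0.574). The limma adjusted p was 0.000407, the rank product pfp 0.0032 and the exact permutation p 0.0286.

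Before any scaling the Ccnd1 spots showed the same order, at a mean signal of 2739 to 3637 in B6 and 1351 to 1750 in BTBR. The probe was printed as 10 spots on each array, and the SD of those spots within an array was 0.18 to 0.26 on the log2 scale. The 8 arrays were on 2 slides that each held 2 mice of each strain. Within slide 1 Ccnd1 differed by -0.96 and within slide 2 by -1.14, and the difference between these values had a limma adjusted p of 0.633.

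Ccnd2 encodes cyclin D2, the D cyclin known for its part in the division of adult hippocampal progenitors. It had 3 probes on chromosome 6, minus strand, at chr6:127089187-127089246 (probe 1), chr6:127079694-127079753 (probe 2) and chr6:127098696-127098755 (probe 3), all annotated to NM_009829. Probe 1 read 13.27, 13.58, 13.76 and 14.04 in B6 and 13.19, 13.67, 13.75 and 13.65 in BTBR. Probe 2 read 13.48, 13.49, 13.71 and 14.01 in B6 and 13.03, 13.63, 13.65 and 13.60 in BTBR. Probe 3 read 13.60, 13.65, 13.79 and 14.16 in B6 and 12.81, 13.38, 13.75 and 13.65 in BTBR. The strains overlapped at all 3 probes, with BTBR replicate 1 the lowest array and B6 replicate 4 the highest at each of them.

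None of the Ccnd2 probes passed the limma threshold. The differences were -0.10 (95% interval -0.49 to 0.30) at probe 1 and -0.19 (-0.57 to 0.19) at probe 2, with limma adjusted p of 0.838 and 0.623. Probe 3 gave -0.40 (-0.87 to 0.07) with a limma adjusted p of 0.361 and an exact permutation p of 0.200. All 3 intervals included 0. Without BTBR replicate 1 the estimates were 0.03, -0.05 and -0.21 at probes 1 to 3, and without B6 replicate 4 they were 0.03, -0.08 and -0.28, so that these arrays set much of the size.

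Ccnd3, cyclin D3, had a single probe at chr17:47736267-47736326, plus strand. It read 11.94, 12.05, 12.35 and 12.12 in B6 and 12.45, 12.31, 12.38 and 12.23 in BTBR. B6 replicate 3 lay within the BTBR range, and the other B6 arrays lay below it. The difference was 0.23 (95% interval 0.01 to 0.45), with a limma adjusted p of 0.239 and an exact permutation p of 0.0857. Within slide 1 it was 0.39 and within slide 2 it was 0.07. Ccnd1 and Ccnd3 thus had estimates of opposite sign, and the test between these genes was not made because they come from different probes.

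**Figure D1:**
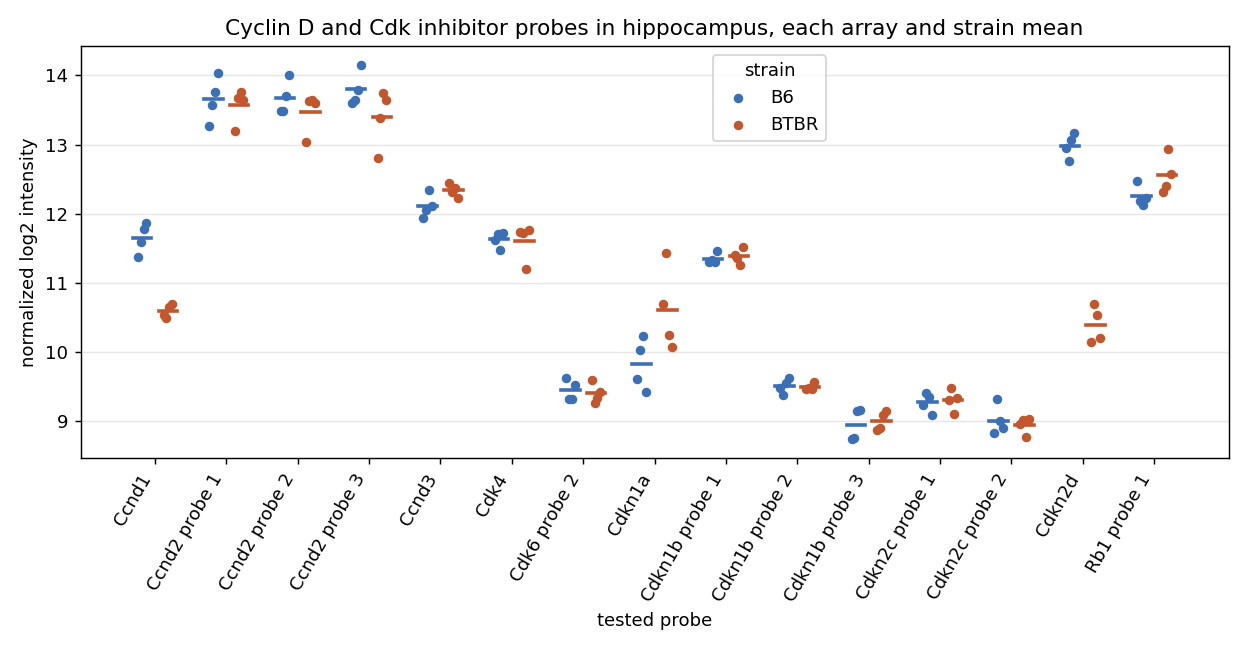
Normalized log2 intensity (y axis) of the 15 tested probes (x axis), with 1 point per array, B6 in blue, BTBR in orange and bars for the strain means. The BTBR points lie wholly below the B6 points at Ccnd1 (10.50 to 10.70 against 11.37 to 11.86) and Cdkn2d (10.15 to 10.70 against 12.77 to 13.16), and the strains overlap at the other 13 probes.

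Among the partner kinases no difference was called. Cdk4 is the kinase of D cyclins in most tissues, and its probe at chr10:126501967-126502026, plus strand, read 11.63, 11.71, 11.47 and 11.72 in B6 and 11.74, 11.73, 11.21 and 11.76 in BTBR. BTBR replicate 3 was the lowest array, and the other BTBR arrays lay just above the highest B6 array. The difference was -0.02 (95% interval -0.32 to 0.27, limma adjusted p 0.949).

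Cdk6, the second D cyclin kinase, had 3 probes on chromosome 5, plus strand. The probe at chr5:3529287-3529346 (AK030810) was tested, with means of 9.45 ± 0.15 in B6 and 9.41 ± 0.15 in BTBR (SD, n = 4 each) and a difference of -0.04 (95% interval -0.27 to 0.19, limma adjusted p 0.875). The probe at chr5:3521669-3521728 was well above background on B6 replicate 4 and on no other array. The remaining probe, whose bases lie between 3473220 and 3515504 in mm9 and are not contiguous there, passed the background test on 0 arrays. Neither of these probes, both annotated to NM_009873, allows a comparison of the strains.

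Cdkn1a, the Cip/Kip inhibitor p21 that p53 induces after DNA damage, was higher in BTBR by the rank product and did not pass limma. It read 9.61, 10.03, 10.24 and 9.42 on B6 replicates 1 to 4 and 10.69, 11.44, 10.25 and 10.08 on BTBR replicates 1 to 4. BTBR replicates 1 and 2 were above every B6 array, BTBR replicate 3 was level with the highest B6 array, and BTBR replicate 4 lay inside the B6 range. The means were 9.82 ± 0.37 in B6 and 10.61 ± 0.61 in BTBR (SD, n = 4 each), and this was the widest spread among BTBR arrays at any of the 15 probes.

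The Cdkn1a difference was 0.79 (95% interval 0.11 to 1.47), a linear ratio of 1.73 (1.08 to 2.76). The limma adjusted p was 0.188 and the exact permutation p 0.0571, whereas the rank product gave a pfp of 0.0400. The spots of the probe, 9 of 10 of which were used, had an SD of 0.13 to 0.19 within an array. Within slide 1 the difference was 1.24 and within slide 2 it was 0.34, with a limma adjusted p of 0.541 for the difference between slides. Without BTBR replicate 2 the estimate fell to 0.52 and the rank product pfp was 0.315.

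The same BTBR replicates 1 and 2, which are also the only BTBR arrays of slide 1, stood apart in markers of some other cell types. At Cdkn1a the B6 arrays read 9.61 and 10.03 on slide 1 and 10.24 and 9.42 on slide 2. Slide and mouse cannot be told apart for the BTBR arrays here. For 7 tested genes of the choroid plexus, the epithelium that lines the ventricle beside the hippocampus, the summed linear intensity was 61631 and 59549 on BTBR replicates 1 and 2 and 14874 to 36360 on the other 6 arrays. For 7 oligodendrocyte genes it was 475292 and 551814 against 290807 to 397303, and for 6 oligodendrocyte precursor genes 55867 and 54101 against 41554 to 44096. The sum of 10 hippocampal neuron markers was lowest on these arrays, at 213096 and 228879 against 272100 to 327874. Limma called 0 genes of these 4 lists, with 0 (choroid plexus), 2 (oligodendrocyte), 0 (precursor) and 2 (neuron) probes at an unadjusted p under 0.05 and 0, 1, 0 and 3 rank product calls. With BTBR replicates 1 and 2 both left out, Cdkn1a differed by 0.34 (limma adjusted p 0.509, rank product pfp 0.780). Not every list set these arrays apart. The endothelial genes summed to 32883 and 34699 on them and to 28376 to 37876 in B6. The meninges genes summed to 42031 and 28698 on them and to 17990 to 51882 in B6. The part that cell composition has in the Cdkn1a values was not tested.

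Cdkn1b, the Cip/Kip inhibitor p27 that holds cells in quiescence, did not differ detectably at any of its 3 probes. The probe at chr6:134875215-134875274, plus strand, had means of 11.35 ± 0.07 in B6 and 11.39 ± 0.11 in BTBR (SD, n = 4 each) and a difference of 0.04 (95% interval -0.13 to 0.21). The probe at chr6:134871103-134871161, printed as 10 spots, differed by -0.01 (-0.17 to 0.14), and the probe at chr6:134873606-134873665 (ENSMUST00000067327) by 0.06 (-0.22 to 0.33). The limma adjusted p lay between 0.839 and 0.950. For the first and second probe these intervals leave room for changes of about 0.2 on the log2 scale at most, and the remaining probe has a wider interval.

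Cdkn2c, the INK4 inhibitor p18, had 2 probes on the minus strand at chr4:109333779-109333838 (probe 1, NM_007671) and chr4:109333757-109333818 (probe 2, U19596). They are not independent, since they share a run of 40 bases. This is shown by their first 30 bases, with the part of the shared run that falls there in capitals.
Cdkn2c probe 1: tctcactgacctcacactgtCCGTTAGTTG
Cdkn2c probe 2: CCGTTAGTTGGTTGGCTGTCCGTTTCACTA

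At probe 1 the Cdkn2c difference was 0.04 (95% interval -0.19 to 0.26) and at probe 2 -0.06 (-0.32 to 0.20), with limma adjusted p of 0.897 and 0.839. The overlapping probes thus gave estimates of opposite sign, both within the spread between mice, whose SD was 0.12 to 0.22.

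Cdkn2d, the INK4 inhibitor p19, is known to be kept up in neurons after they stop dividing, and it gave the widest difference among these genes. Its probe (NM_009878) read 12.95, 12.77, 13.07 and 13.16 on B6 replicates 1 to 4 and 10.15, 10.70, 10.54 and 10.20 on BTBR replicates 1 to 4. The strains were far apart, with the highest BTBR array more than 2 log2 units below the lowest B6 array. The means were 12.99 ± 0.17 in B6 and 10.40 ± 0.27 in BTBR (SD, n = 4 each).

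Cdkn2d differed by -2.59 on the log2 scale (95% interval -2.91 to -2.27), which is 83.4% lower in BTBR on the linear scale (ratio 0.166, 0.133 to 0.207). The limma adjusted p was 5.31e-06, the rank product pfp 0 over its 100 permutations, and the exact permutation p 0.0286. The mean spot signal before scaling was 8005 to 8984 in B6 and 1076 to 1778 in BTBR, over a local background of 45 to 61. The probe was well above background on all 8 arrays, so that the BTBR signal is measured and not a bound. Within slide 1 the difference was -2.44 and within slide 2 -2.75, with a limma adjusted p of 0.683 for the difference between slides. No second probe carried the name Cdkn2d, and its spot was printed 1 time on each array.

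**Figure D2:**
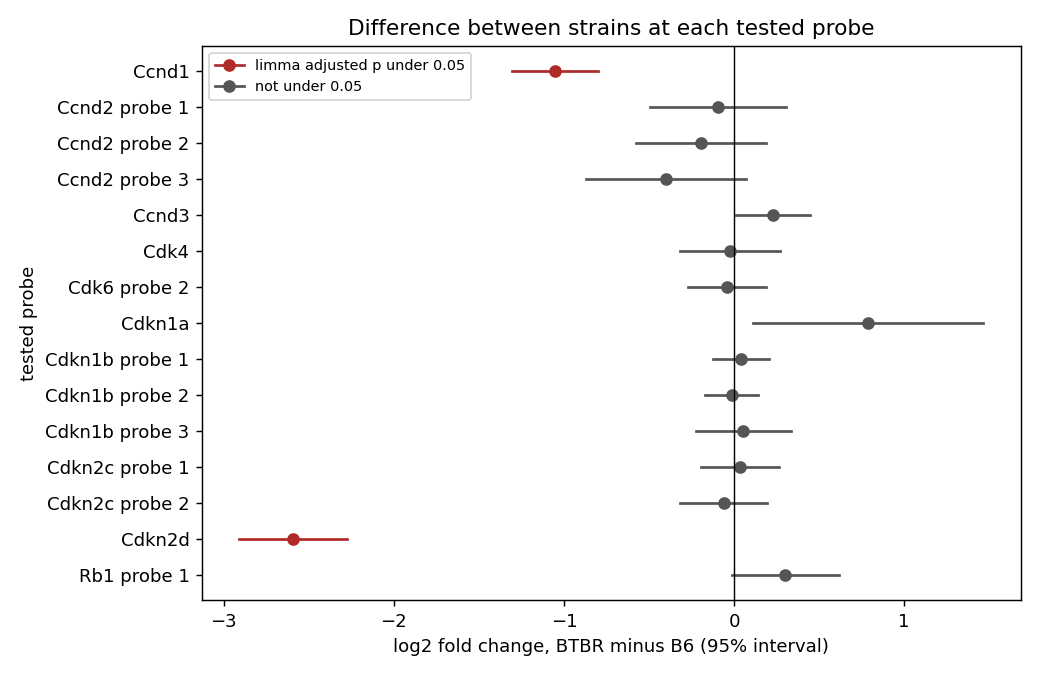
Difference between the strains (x axis, log2, BTBR minus B6) at each of the 15 tested probes (y axis), with points for the estimates, bars for the 95% intervals from limma, and red for an adjusted p under 0.05. Cdkn2d (-2.59) and Ccnd1 (-1.05) are in red, and Cdkn1a (0.79) has the widest interval.

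Rb1 encodes the retinoblastoma protein, the substrate of these kinases. Its probe at chr14:73595408-73595467, minus strand, read 12.48, 12.18, 12.13 and 12.23 in B6 and 12.32, 12.40, 12.93 and 12.58 in BTBR. B6 replicate 1 lay within the BTBR range, and the other B6 arrays lay below it. The difference was 0.30 (95% interval -0.01 to 0.62), with a limma adjusted p of 0.291 and an exact permutation p of 0.0857. It was 0.03 within slide 1 and 0.57 within slide 2, and 0.18 without BTBR replicate 3. A second Rb1 probe at chr14:73662360-73662419 met the criterion of well above background on 0 arrays and was not tested.

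Markers of other cell types were read from the same fit. Limma called 10% of all gene names tested, and the counts that follow are to be read against that share. Of 8 astrocyte genes, 2 (25%) were lower in BTBR by limma and 0 higher, and the summed intensity was 499778 to 525397 in B6 and 380033 to 504945 in BTBR. Among 10 microglia genes, 4 were lower and 1 was higher (50% called), with sums of 54126 to 58250 in B6 and 49118 to 61343 in BTBR. Limma called 2 of 9 meninges genes higher and 1 of 5 blood genes lower, and 1 of 7 immature neuron genes had probes called in both directions. The immature neuron and progenitor genes summed to 17749 on BTBR replicate 1 and to 5594 to 7667 on the other arrays, and the blood genes to 199379 on BTBR replicate 3 and to 39598 to 78997 on the others. Of 7 endothelial genes it called 0, with 1 probe at an unadjusted p under 0.05 and 0 rank product calls. For 9 thalamus genes the sum was 125692 on BTBR replicate 1 and 26776 on BTBR replicate 2, where the other 6 arrays had 13642 to 18954, so that the arrays highest for Cdkn1a were also the highest here. Limma called 0 of these thalamus genes, with 0 probes at an unadjusted p under 0.05 and 6 rank product calls. Ccnd1 and Cdkn2d differed by -1.04 and -2.52 without that array, and by -0.98 and -2.63 with BTBR replicates 1 and 2 both left out, all of them called by limma. Whether astrocyte or microglial RNA had a part in the Ccnd1 or Cdkn2d values was not tested.

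The estimates for Ccnd1 and Cdkn2d were set against 22 other ways of preparing or fitting the values. Ccnd1 was called in 22 of 22, with differences of -1.14 to -0.93 and limma adjusted p of 6.8e-05 to 0.00758. Cdkn2d was called in 22 of 22 as well, with differences of -2.79 to -2.44 and limma adjusted p of 1.56e-06 to 0.000691. Cdkn1a was higher in BTBR in all of them, by 0.34 to 1.24, and was called by limma in 0 of 22 and by the rank product in 10 of 17 settings. Taking the median over the probes of each gene before the fit left the same 2 genes called, Ccnd1 and Cdkn2d.

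**Figure D3:**
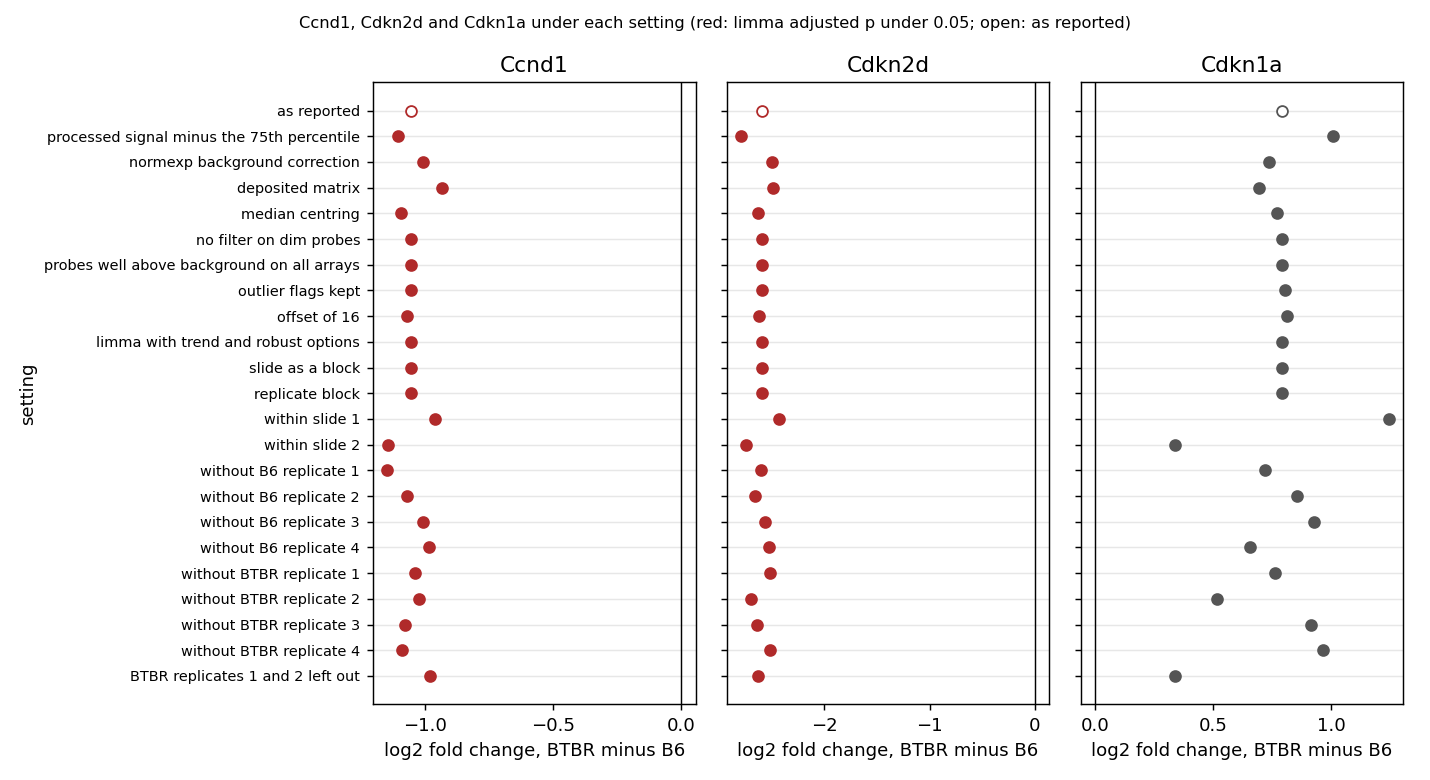
Difference between the strains (x axis, log2, BTBR minus B6) for Ccnd1, Cdkn2d and Cdkn1a under each of 22 other settings (y axis), with the reported value as an open circle and red for a limma adjusted p under 0.05. Ccnd1 and Cdkn2d stay red throughout, and Cdkn1a moves between 0.34 within slide 2 and 1.24 within slide 1.

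The tested probes of other genes within 250 kb of each called probe were examined. Around Ccnd1 there were 3 tested probes of 2 genes, Fgf15 and Oraov1, all to the same side of its probe, which differed by -0.06 to 0.17. Limma called 0 of them, with 0 at an unadjusted p under 0.05 and 0 by the rank product. Around Cdkn2d there were 28 tested probes of 15 genes, and limma called 4 of them (14.3%), 3 lower and 1 higher in BTBR, where it called 7.61% of all tested probes.

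Qtrt1, a subunit of the enzyme that puts queuine into transfer RNA, was lower at both of its probes, which lie 129.8 and 131.5 kb from the Cdkn2d probe and differed by -0.90 and -0.59. Their limma adjusted p were 0.000252 and 0.00249. Atg4d, an autophagy protease gene 14.3 kb to the other side, had 1 of 3 probes called higher, with a difference of 0.93 (limma adjusted p 1.63e-05), while its other probes gave 0.12 and 0.05. The Kri1 probe, at 14.8 kb the next closest, differed by -0.07 and was not called. The called probes were thus of both signs, and all were closer to 0 than Cdkn2d.

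**Figure D4:**
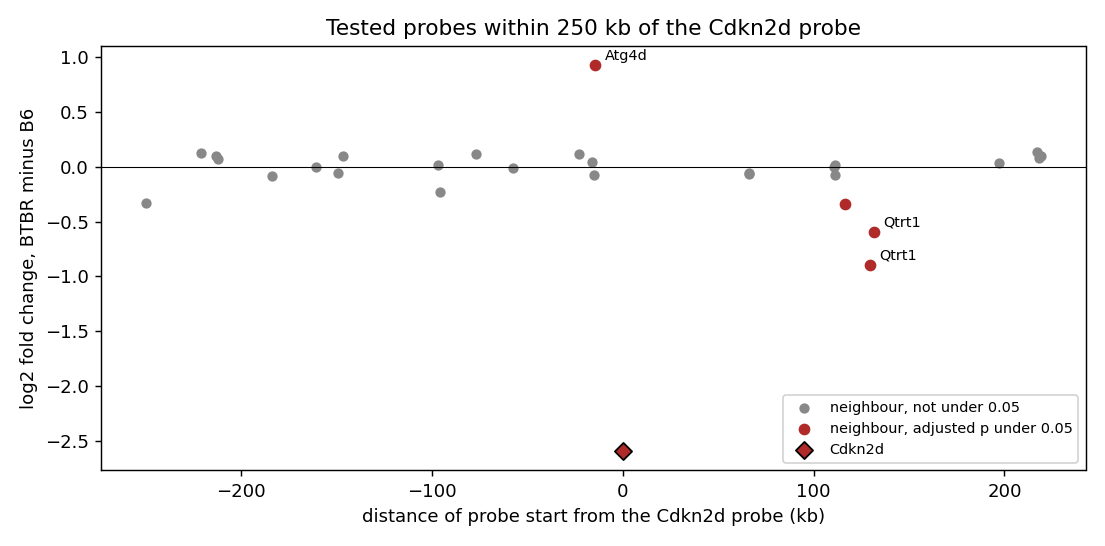
Difference between the strains (y axis, log2, BTBR minus B6) of 28 tested probes within 250 kb of the Cdkn2d probe (x axis, distance in kb), with red for a limma adjusted p under 0.05 the diamond for Cdkn2d itself, and names for called neighbors more than 0.5 from 0. The 4 called neighbors lie between -0.90 and 0.93, against -2.59 for Cdkn2d.

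By Pearson correlation over the 8 arrays, the named genes whose probes were most like Ccnd1 were Aldh7a1, an aldehyde dehydrogenase gene (r = 0.997), Fbxo44, an F-box gene (r = 0.993), and Snapc1, a subunit of a small nuclear RNA transcription complex (r = 0.990). For Cdkn2d they were the kinase gene Stk32a (r = 0.999), the zinc finger gene Zfp87 (r = 0.994) and the small GTPase gene Rab23 (r = 0.994). These values describe the 8 arrays, and much of each comes from the strain difference that the genes share. The genes were picked for a high r over the same 8 arrays, so their r within strains and the sign of their differences are largely set by that choice. After the strain means were removed r was 0.874 to 0.959 for the 3 genes most like Ccnd1 and 0.697 to 0.970 for those most like Cdkn2d. All 6 genes had lower values in BTBR, with log2 differences of -0.47, -0.65 and -0.69 for Aldh7a1, Fbxo44 and Snapc1 and of -1.25, -1.38 and -0.74 for Stk32a, Zfp87 and Rab23.

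Among other genes of the Rb and E2F pathway, calls lay in both directions. Of 29 such genes 24 could be tested, and 3 were called higher, 2 lower and 19 not called. These 5 genes were 20.8% of those tested, where 10% of all gene names were called, and 6 of 45 probes (13.3%) were called, where limma called 7.61% of all probes. This list, too, was chosen with earlier results of these data known, and enrichment was not tested. The median difference over the 45 probes was -0.01. The rank product called 0 of these probes, and 12 of the 45 had an unadjusted p under 0.05 in limma, against 18.5% of all tested probes. Their summed linear intensity was 219786 to 228361 in B6 and 198580 to 229410 in BTBR, with overlap. Cdc25a, the phosphatase that activates Cdk2, was lower, with a difference of -0.62 (limma adjusted p 0.00214), with means of 9.71 ± 0.11 in B6 and 9.10 ± 0.13 in BTBR (SD, n = 4 each). Ccne1, cyclin E1, which acts after the D cyclins, was lower at 1 of its probes, with a difference of -0.37 (limma adjusted p 0.0371), and its other probe gave -0.21 and was not called.

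Cdkn2b, the INK4 inhibitor p15, was higher by 0.43 (limma adjusted p 0.0158), opposite in sign to Cdkn2d of the same inhibitor family. Tfdp2, a dimerization partner of E2F factors, was higher at 1 of 3 probes by 0.40 (limma adjusted p 0.0257), and its other probes gave -0.18 and -0.13. E2f1, the E2F factor that D cyclin kinases free from Rb, was also called higher, by 0.49 and 0.55 at its called probes (limma adjusted p 0.0399 and 0.0403), and it is named outside the naming rule because it was the remaining called gene. E2f4, E2f7, E2f8, Cdk2 and Cdkn2a had no probe bright enough to be tested.

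Of 17 genes of S phase that E2F factors control, 16 could be tested, and 3 were called higher, 2 lower and 11 not called. This was 31.2% of the genes and 6 of 20 probes (30%), against 10% of all gene names and 7.61% of all probes. The list was chosen with earlier results of these data known, so these shares are no test of enrichment. The median difference over the 20 probes was 0.02, 8 of the 20 had an unadjusted p under 0.05 (18.5% over all tested probes), and the rank product called 2. The summed linear intensity of these genes was lower on every BTBR array (37201 to 39508) than on every B6 array (41728 to 48153), a description in which the brightest genes weigh most. Mcm3, a subunit of the replicative helicase, was higher by 1.18 at 1 probe (limma adjusted p 0.000801), with means of 9.31 ± 0.22 in B6 and 10.49 ± 0.22 in BTBR (SD, n = 4 each), while its second probe gave 0.16 and was not called. Tyms, thymidylate synthase, was lower at 2 probes, with differences of -0.66 and -0.57 (limma adjusted p 0.00248 and 0.0065), and gave 0.04 at its remaining probe. Ccna2, cyclin A2, was higher by 0.35 (limma adjusted p 0.0211), and Pcna, the sliding clamp of DNA polymerase, was lower, with a difference of -0.28 (limma adjusted p 0.0422). Rrm2, a ribonucleotide reductase subunit and again the remaining called gene, was higher by 0.30 (limma adjusted p 0.0435).

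Since Cdkn1a is a p53 target, 15 other p53 target genes were read from the same fit. All 15 were tested with 24 probes, and limma called 0 of them, with 7 of the 24 probes at an unadjusted p under 0.05 (18.5% over all tested probes), 0 rank product calls and a median difference of 0.04. Over all tested probes the median was 0.01. The summed intensity of the p53 targets was 97992 to 106072 in B6 and 90689 to 108460 in BTBR.

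**Figure D5:**
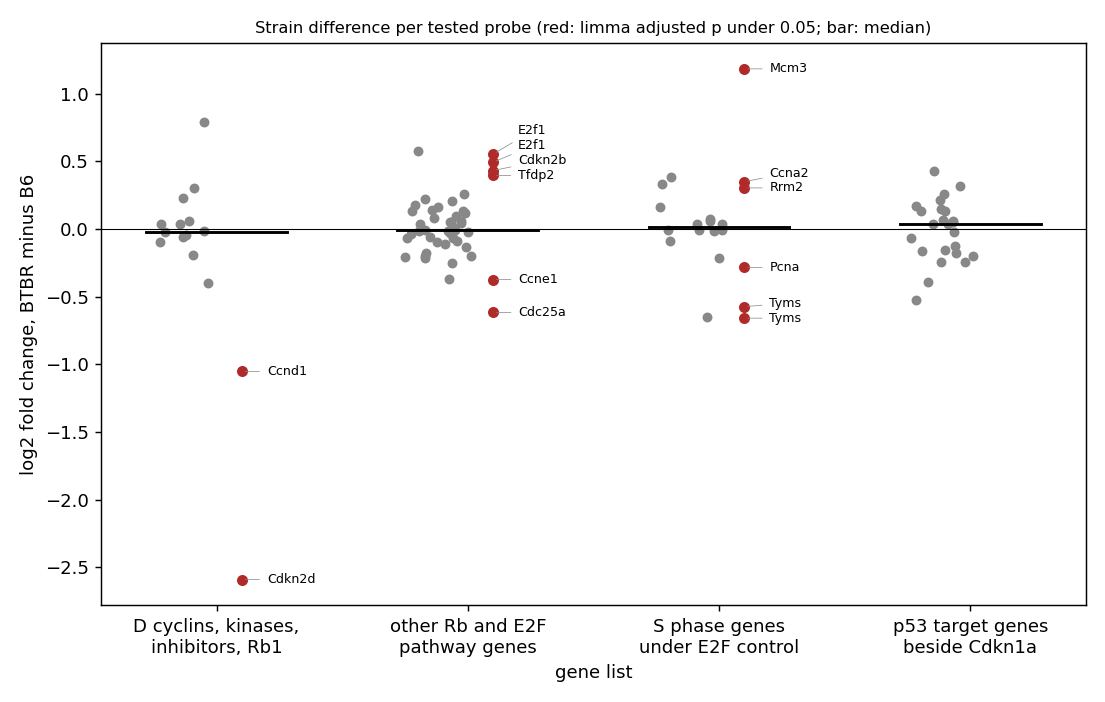
Difference between the strains (y axis, log2, BTBR minus B6) for the tested probes of 4 gene lists (x axis), with 1 point per probe, red and named for a limma adjusted p under 0.05, and black bars for the list medians. The medians lie between -0.02 and 0.04, and Cdkn2d (-2.59), Mcm3 (1.18) and Ccnd1 (-1.05) lie farthest from 0.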

How the data were processed

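Total RNA from 8 hippocampi, 4 per strain, was labeled with Cy3 and hybridized to arrays with 45018 spots. The deposited intensity values are mean spot signals and local backgrounds from Agilent Feature Extraction, whose version is 10.7.3.1 per the file headers and 9.1 in the submitters' processing notes. The log2 matrix deposited by the authors was background subtracted and quantile normalized by them, and served as an alternative. Here the median local background was subtracted, with a floor of 0.5 and an offset of 50, before log2 transformation and quantile normalization. Control spots and probes with an outlier flag were dropped (41020 of 41174 probes were left), replicate spots were combined by their median, and dim probes were removed, leaving 27982. Between 56.8% and 71.9% of probes per array were well above background and 0 spots were saturated, and the 4 arrays per strain limit the precision.

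Limma 3.58.1 in R 4.3.3 (with the data.table package, 1.17.8) fitted strain alone. The rank product used 100 permutations of the probes within arrays. It does not use the spread of each probe. On simulated data in which probes kept their own spread, the rank product made far more false calls than limma and more than its pfp threshold stands for. That simulation drew the probes independently and used fewer permutations, so it does not give the share of false calls in these data. A call by the rank product alone, such as that of Cdkn1a, was read with caution. Figures used Python 3.11.15, pandas 2.3.3, NumPy 2.4.6 and matplotlib 3.10.9. Within-slide differences come from a fit with a mean for each strain and slide. Replicates are separate mice.

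The members and lists were chosen with earlier results of these data known. The naming rule took every member, up to 4 called genes with the smallest p per pathway list, the 3 genes most correlated with each called member, and genes with a called probe within 250 kb of one. Alternative settings used the software's processed signal centred on its 75th percentile, normexp, the deposited matrix and median centring. Others used no filter and a stricter filter on dim probes, outlier flags kept and an offset of 16. Further ones used limma with trend and robust options, slide or replicate as a block, and the difference within each slide. The within-slide values came from a fit to all arrays, so their error is shared between the slides. The rest were each array left out, stricter thresholds of 0.01 and the median over a gene's probes. Leaving out BTBR replicates 1 and 2 together was added after seeing the data.

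The mice were not treated as paired in the main fit. Same-numbered B6 and BTBR arrays had deviations from their strain means that correlated at -0.14, 0.51, -0.10 and 0.39. These arrays also shared a slide, so the values do not settle whether the numbers pair the mice. The qRT-PCR measurements of the study, which include Ccnd1 and Cdkn1a, and its En2 mice were not analysed here. A called neighbor of Cdkn2d is counted but not reported here by name.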

Additional observations from a re-analysis of the deposited data

Results flagged for a closer look

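Of 30 sets of 4 arrays (15 probes in each strain), 3 held an array whose gap to its nearest neighbor exceeded Dixon's 95% critical value for its share of the range, and chance alone flags about 1 set in 20. At Ccnd2 probe 2, BTBR replicate 1 read 13.03 with the next array at 13.60 (gap 0.933 of the range), and this array was the lowest at all 3 Ccnd2 probes. At Cdk4, BTBR replicate 3 read 11.21 with the next array at 11.73 (gap 0.943), and without it Cdk4 differed by 0.11 in place of -0.02, uncalled by limma either way. At the Cdkn1b probe at chr6:134875215-134875274, B6 replicate 4 read 11.46 with the next array at 11.33 (gap 0.833).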

How the results depend on the processing

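The 2 limma calls were the same in number under every alternative, including an adjusted p under 0.01 and the median over a gene's probes, and the rank product called 2 or 3 probes. Ccnd1 and Cdkn2d stayed called throughout, and no probe of another member became called by limma. The rank product lost Cdkn1a with the processed signal (pfp 0.0982), without B6 replicate 1, B6 replicate 4, BTBR replicate 1, BTBR replicate 2 or BTBR replicate 3 (pfp 0.0595 to 0.315) and with BTBR replicates 1 and 2 both left out (pfp 0.780). It also lost Cdkn1a, at its reported pfp of 0.0400, under the stricter threshold of 0.01. With the replicate block, limma called 2 member probes and 1650 of 27982 probes in all, and with slide as a block 2 and 2329. Over all probes limma called 2421 within slide 1 and 1036 within slide 2, against 2129 as reported.

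Estimates near 0 changed sign under some alternatives, none of them called, and the cause was not tested. The Cdkn1b probe printed as 10 spots gave 0.0875 with the processed signal, 0.0472 with the deposited matrix and 0.0456 within slide 1, and the first Cdkn1b probe gave -0.0023 with median centring. Within slide 1 Ccnd2 probe 1 gave 0.0062 and Cdk4 0.0642. Within slide 2 Cdkn2c probe 1 gave -0.0040 and the Cdkn1b probe ENSMUST00000067327 gave -0.0293. With BTBR replicates 1 and 2 left out, Ccnd2 probe 1 gave 0.0408, the 10-spot Cdkn1b probe 0.0078 and Cdkn2c probe 1 -0.0557. With 1 array left out, the ranges were -0.2257 to 0.0298 for Ccnd2 probe 1, -0.0782 to 0.1104 for Cdk4 and -0.1074 to 0.0178 for Cdk6. They were -0.0246 to 0.1058 and -0.1238 to 0.0415 for Cdkn2c probes 1 and 2, and -0.0039 to 0.0799, -0.0532 to 0.025 and -0.0162 to 0.124 for the Cdkn1b probes. The probes not well above background (2 of Cdk6, 1 of Rb1) limit what can be said of those transcripts.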
